A study of Rattus norvegicus with 2 samples.

Results

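A set of 190 genes was more abundant in the failing left ventricle of chaetocin-treated rats than in that of untreated rats, without having been halved by heart failure itself. The members were chosen from the 20174 genes of a rat oligonucleotide chip. The HS (ch+)/HS (−) ratio had to be over 1.4, the HS (−)/NS (−) ratio had to be 0.5 or more, and the HS (−) signal had to be at least 100 on both arrays. Of the 4127 genes with both ratios and this signal, 242 had an HS (ch+)/HS (−) ratio over 1.4, which is 5.86%. Among these, 50 fell below the limit on HS (−)/NS (−), and 2 further genes were left out by the definition of the set. Because both ratios chose the members, their values are given as a description and no test was made on them.

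All animals were male Dahl salt-sensitive (DS) rats, a strain that becomes hypertensive on a high-salt diet. The control group, NS (−), received a diet with 0.3% NaCl. The heart failure group, HS (−), received a diet with 8% NaCl. The treatment group, HS (ch+), received the 8% NaCl diet and intraperitoneal injections of 0.25 mg/kg of chaetocin, 2 each week, between 6 and 13 weeks of age. Whether the other groups were injected with the solvent alone is not given in the sources used here. RNA of 3 rats was pooled for each group, and the 3 pools were hybridized to 2 dual-color arrays. On array 1, the HS (−) pool carried the dye Cy5 and the NS (−) pool the dye Cy3. On array 2, Cy5 again marked HS (−), and Cy3 marked HS (ch+). No pool of rats given chaetocin on the normal diet was analysed here, so an effect of the drug outside heart failure cannot be told apart from one within it. Each comparison rests on 1 array without a dye swap, and dye and group cannot be told apart within an array.

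Trimethylation of lysine 9 on histone H3 is a mark of compact, transcriptionally silent chromatin. It is written by SU(VAR)3-9 enzymes, and chaetocin, a fungal product, inhibits these and possibly other enzymes. Loss of such a mark is thought to allow transcription, so genes that rise with the drug are a natural class to examine, both where failure had lowered them and where it had not. In the stressed ventricle, many genes of energy metabolism and contraction are turned down as failure develops, whereas stress and matrix genes are turned up.

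The chip identifies genes by Ensembl ID only, and none of these IDs was paired with a symbol in the reference table used. The study named 50 of the IDs, and 0 of the 190 members were among them, so the members are described here by their values and position and not by function. The 50 genes that rose with chaetocin after having been halved were all among those named by the study, and they serve as the nearest comparison. Of the cardiac markers, the α-myosin heavy chain gene Myh6 could be read through this list. Its HS (−) signal on array 1 was 11788, and its NS (−) spot was saturated. Markers of fibroblasts, endothelial cells and blood cells could not be looked up. In whole tissue, fewer cells of a type and less RNA per cell cannot be told apart.

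Blank spots without probe had a mean between 24.8 and 51.2 in the 4 channels, and this mean was subtracted from every spot. With so few arrays, every value is of limited precision. The same HS (−) pool was read in Cy5 on both arrays, and the log2 difference between its paired readings had an SD of 0.16 over the 4127 genes, or 1.12-fold. Over the 190 members this SD was 0.18. It covers differences between arrays in Cy5, with labelling only if this was repeated for each array, and not the differences between rats.

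The members covered a wide range of signals. On array 1, the NS (−) signal ran from 29.8 through a median of 473 to 17071, and the HS (−) signal ran from 100.3 through a median of 276 to 9206. On array 2, the HS (−) signal ran from 102 through a median of 308 to 11823, and the HS (ch+) signal from 198 through a median of 596 to 22125. The typical member was thus dimmer in the HS (−) pool, always in Cy5, than in both other pools, always in Cy3. The same held within each array for all 4127 genes. Their medians were 326 in NS (−), 287 and 325 in HS (−), and 432 in HS (ch+). These signals are not yet centered. Centering lowers the log2 ratio of Cy3 to Cy5 by 0.17 on array 1 and by 0.38 on array 2, and all ratios below include it.

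**Figure D1:**
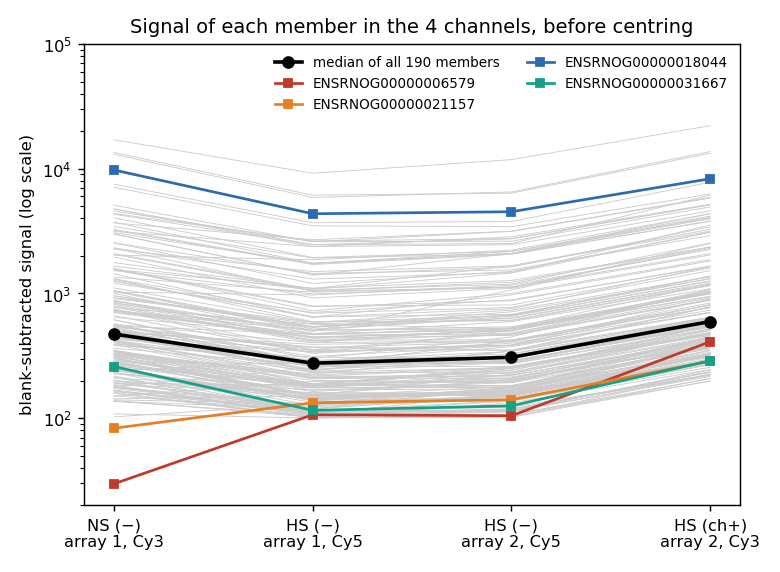
Blank-subtracted signal (log scale) of each of the 190 members in the 4 channels; grey lines are single members, the black line is their median, and the colored lines are the 2 members with the highest and the 2 with the lowest HS (−)/NS (−) ratio. The median runs from 473 in NS (−) to 276 and 308 in HS (−) and 596 in HS (ch+), and ENSRNOG00000006579 starts lowest, at 29.8 in NS (−).

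The HS (ch+)/HS (−) ratio of the members had a median of 1.48, and most values lay close to the limit. It was between 1.4 and 1.5 in 108 members, between 1.5 and 2 in 81, and over 2 in 1. The middle 50% of members lay between 1.43 and 1.58. The 50 halved genes had a median of 1.60 and a highest value of 2.24, and all 4127 genes a median of 1.02. A ratio of 1.4 is 0.49 on the log2 scale, 3.04 times the SD of the repeated readings. That SD comes from Cy5 on separate arrays and holds no Cy3 reading. It is not the spread of the HS (ch+)/HS (−) ratio, and the multiple is not a test.

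The HS (−)/NS (−) ratio of the members had a median of 0.640, against 0.978 for all 4127 genes. Although none was halved, 177 of the 190 members had a ratio under 1, against 53.3% of all genes. A ratio under 0.71, the inverse of 1.4, was found in 127 members, against 13.5% of all genes. Only 13 members had a ratio over 1, against 46.6% of all genes, and 5 had a ratio over 1.4, against 12.0%. A single member exceeded 2, against 4.17%. HS (−) is the denominator of one ratio and the numerator of the other, so both ratios contain the same pool. Its part in the share of members with lowered values was not tested. HS (−) was also always in Cy5 and both other pools in Cy3. A dye difference of a gene thus cannot be told apart from a difference between pools.

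**Figure D2:**
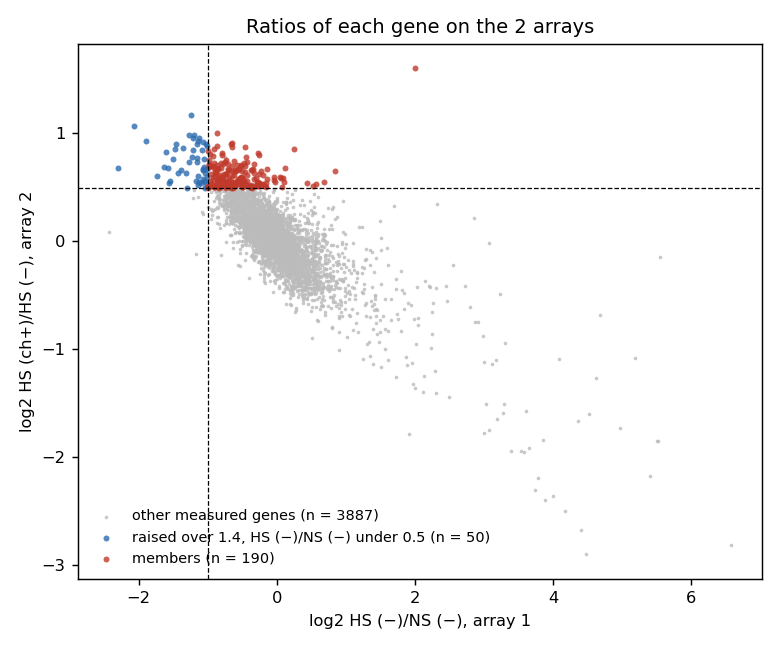
Each point is 1 of the 4127 genes, with log2 HS (−)/NS (−) of array 1 on the x axis and log2 HS (ch+)/HS (−) of array 2 on the y axis; dashed lines mark ratios of 0.5 and 1.4, and the 2 genes left out by definition are among the grey points. The 190 members lie above the horizontal line, 177 of them left of 0 on the x axis, and 1 stands alone at the upper right.

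The members therefore fell into 3 classes by their level in heart failure. In the first class, 127 members had an HS (−)/NS (−) ratio between 0.5 and 0.71. Their median signals were 557 in NS (−), 286 and 346 in HS (−), and 646 in HS (ch+), and their HS (ch+)/HS (−) ratios had a median of 1.48. Of all 499 genes in this range, 25.5% were members. In the second class, 50 members had a ratio between 0.71 and 1, with a median HS (ch+)/HS (−) ratio of 1.46. These made up 3.04% of the 1645 genes in that range. The 13 members over 1 formed the third class, had median signals of 150 in NS (−), 184 and 178 in HS (−), and 383 in HS (ch+), and had a median HS (ch+)/HS (−) ratio of 1.49. They made up 0.675% of the genes in that range. The median rise lay between 1.46 and 1.49 in the 3 classes, close to the limit of 1.4 that all members had to pass.

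Multiplying both ratios gives HS (ch+)/NS (−), which compares 2 pools in the same dye on separate arrays. Its median over the members was 0.994, against 0.990 for all 4127 genes and 0.705 for the 50 halved genes. With chaetocin, 92 members stood above the NS (−) level, against 47.5% of all genes, and 98 stood below it. The SD of the HS (−) readings served as a margin, although it holds no Cy3 reading and is not the spread of this product. With it, 56 members were above NS (−), 66 were below NS (−), and 68 were within the margin. For all genes these shares were 23.2%, 27.6% and 49.2%. Of the 50 halved genes, 0 were above NS (−) and 46 were below it by more than this margin. By the limit on HS (−)/NS (−) they started lower than the members, which sets part of this difference.

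The level with chaetocin followed the class. Of the 127 members in the lowest class, 29 ended above NS (−), and the median HS (ch+)/NS (−) ratio was 0.893, between 0.704 and 1.20. All 50 members of the second class ended above it, with a median of 1.21, and so did the 13 of the third, with a median of 1.96. This order is fixed by the limits on both ratios, since a rise over 1.4 from above 0.71 ends above 1. Among the 177 members under 1 in failure, the log2 rise amounted to 93.5% of the log2 fall in the median, and in 79 it equalled or exceeded the fall. Among the 50 halved genes the median was 57.3%, and 0 of them regained the full fall. The limits set part of this contrast, since a halved gene has to rise further than a member to regain its fall. A ratio HS (ch+)/NS (−) over 1.4 was found in 19 members, against 7.85% of all genes, and one over 2 in 6 members, against 2.59%. A ratio under 0.71 was found in 3 members, against 2.47% of all genes.

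**Figure D3:**
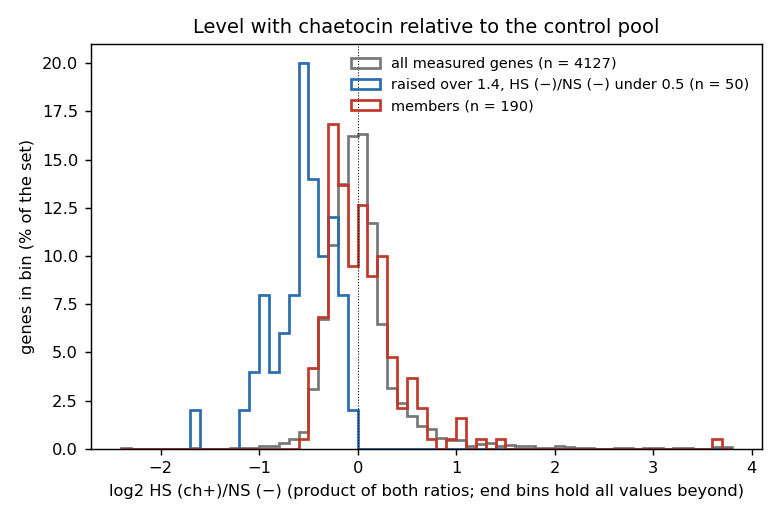
Share of genes (%) by log2 HS (ch+)/NS (−), the product of both ratios, in bins of 0.1 on the log2 scale, for the 190 members (red), the 50 halved genes (blue) and all 4127 genes (grey). The members spread on both sides of 0, with a median ratio of 0.994, and the 50 halved genes lie below 0, with a median ratio of 0.705.

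Of the 13 members with an HS (−)/NS (−) ratio over 1, the 2 with the highest ratio are given in full. ENSRNOG00000006579 had signals of 29.8 in NS (−), 107 and 105 in the repeated HS (−) readings, and 410 in HS (ch+). It was lowest in the control pool, higher in failure and highest with chaetocin, with an HS (−)/NS (−) ratio of 4.02 and an HS (ch+)/HS (−) ratio of 3.02, the highest of all 4127 genes. Its HS (ch+)/NS (−) ratio was 12.1. With the background value of each spot corrected by normexp and loess normalization, both ratios were smaller, at 1.60 and 1.31. ENSRNOG00000021157 had signals of 83.2 in NS (−), 133 and 141 in HS (−), and 286 in HS (ch+). Its ratios were 1.80 and 1.56. Over all ways of processing, they ran from 1.21 to 1.88 and from 1.24 to 1.66.

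At the lower end, ENSRNOG00000031667 had signals of 260 in NS (−), 116 and 126 in HS (−), and 289 in HS (ch+). Its HS (−)/NS (−) ratio was 0.501 and its HS (ch+)/HS (−) ratio 1.78, which placed it at 0.889 of the NS (−) level. ENSRNOG00000018044 was a bright spot, with signals of 9763 in NS (−), 4356 and 4521 in HS (−), and 8307 in HS (ch+). Its ratios were 0.501 and 1.42, and it stayed at 0.710 of the NS (−) level. Both were low in each HS (−) reading and higher in both other pools. When HS (−) was read from array 2 instead, their HS (−)/NS (−) ratios were 0.478 and 0.457, so these genes lie on either side of the limit depending on the reading. Over all ways of processing, the HS (ch+)/HS (−) ratio ran from 1.31 to 1.78 in ENSRNOG00000031667 and from 1.07 to 1.66 in ENSRNOG00000018044.

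The nearest genes outside that limit were both named by the study. The carboxylesterase gene listed as Ces3 (ENSRNOG00000015519) had an HS (−)/NS (−) ratio of 0.498 and an HS (ch+)/HS (−) ratio of 1.84. Chpt1 (ENSRNOG00000005487), an enzyme of phosphatidylcholine synthesis, had ratios of 0.497 and 1.58. At the limit on HS (ch+)/HS (−), the nearest members were at 1.402 and 1.403 and the nearest genes outside at 1.3998 and 1.3997. At the signal limit, the nearest members had a lower HS (−) signal of 100.3 and 100.8, and the nearest genes outside had 99.0 and 95.9.

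Members occurred at all signal levels in similar shares. They made up 4.84% of the 1466 genes with a lower HS (−) signal between 100 and 200, 4.58% of those between 200 and 500, 4.29% of those between 500 and 1000, and 4.42% of those from 1000. By these centered ratios, the bright members had lower HS (−)/NS (−) values than the dim ones. The median HS (−)/NS (−) ratio was 0.597 in the 34 members from 1000 and 0.677 in the 71 members under 200. Their median HS (ch+)/NS (−) ratios were 0.875 and 1.06. These medians were not tested against each other, and centering does not remove a trend of the ratio with signal. With loess within each array, the median HS (−)/NS (−) ratio over all members was 0.687 instead of 0.640. It was not split by signal in that setting.

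Position on the chip was a feature that the choice of members did not use. The spots lie in 48 blocks, of which 47 held at least 1 member and 1 held none. The 4 blocks with the most members held 39 of them, or 20.5%, while they held 8.21% of the 4127 genes. They were picked by their number of members, so a share above their part of the genes follows from the choice. The 4 blocks were numbers 13, 9, 5 and 2. All their measured genes together had median log2 HS (ch+)/HS (−) ratios of 0.07, 0.08, 0.13 and 0.10, each above 0. Over the 48 blocks this median ran from -0.12 to 0.18, and it was above 0 in many other blocks. The median log2 HS (−)/NS (−) ratios of the same 4 blocks were -0.13, -0.08, -0.19 and -0.09, each below 0. HS (−) carried Cy5 in both ratios, and a dye difference by position was not tested. Block 1, with the highest median log2 HS (ch+)/HS (−) ratio, had 8.11% members, and block 43, with the lowest, had 2.44%. Block 14, where it was 0.10, had 4.26%. How the share of members goes with this median was not tested. The medians include the members themselves. With loess normalization within each block, all 190 members had an HS (ch+)/HS (−) ratio over 1, with a median of 1.42, and 112 had one over 1.4. In this setting, 129 genes of the chip met the limits of the set. Of the 39 members in the 4 fullest blocks, 11 had a ratio over 1.4. The members were chosen by this ratio from the same signals, and the shares of all genes in this setting are not given. Nothing is read from these counts.

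**Figure D4:**
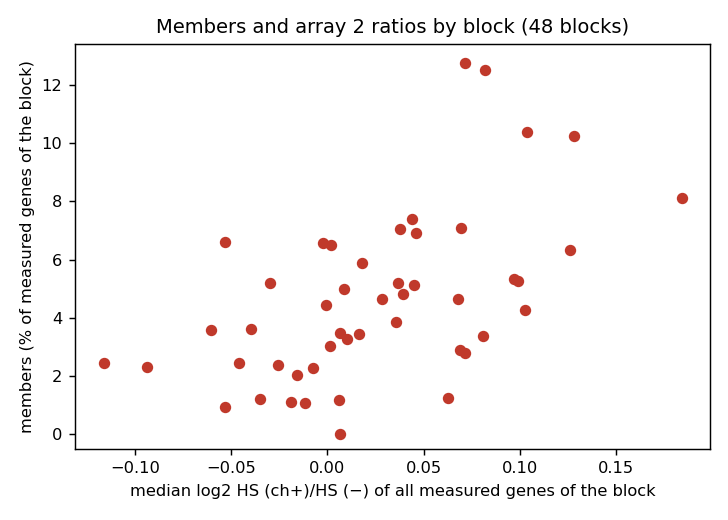
Each point is 1 of the 48 blocks of the chip, with the log2 HS (ch+)/HS (−) ratio on the x axis, as the median over all its measured genes, and the share of these genes that are members (%) on the y axis. The 4 blocks with the most members have shares from 10.2% to 12.8% and medians from 0.07 to 0.13.

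The HS (−) reading of array 1 gave a second denominator for the chaetocin ratio, taken from another array and thus with differences between spots included. With it, the HS (ch+)/HS (−) ratio of the members had a median of 1.51 and a lowest value of 1.20. The ratio was over 1.4 in 138 members, against 8.84% of all genes. Both signals in this ratio were also used to choose the members, and nothing is read from these counts. With the HS (−) reading of array 2, the HS (−)/NS (−) ratio was 0.5 or more in 173 members, against 98.3% of all genes. The paired readings were apart by more than 2 SD in 15 members, which is 7.89%, against 5.02% of all genes. In the member farthest apart, HS (−) read 496 on array 1 and 1064 on array 2, beside 876 in NS (−) and 2525 in HS (ch+). Its HS (−)/NS (−) ratio was 0.637 with the first reading and 1.20 with the second, and its HS (ch+)/HS (−) ratio was 1.83 within array 2 and 3.49 across arrays.

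The size of the rise with chaetocin depended on the processing. Of the 10 other ways of processing, 3 left all 190 members within the limits, namely the deposited ratios, removal of saturated spots and centering on genes alone, and they differ from the values above by construction only slightly or not at all. Over all 10, 184 of the 190 members had an HS (ch+)/HS (−) ratio over 1 in each, and 6 were at or below 1 in at least 1. The members were chosen for a ratio over 1.4 in the same signals, so this count is largely set by that choice. A ratio over 1.4 in each was found in 6 members. Without background subtraction, where the median log2 ratio over the 4127 genes shifted by -0.27, 9 members kept a ratio over 1.4. With normexp and loess 89 did, with loess within each array 120, and after subtraction of each spot's own background 168. In the same order, 21, 370, 129 and 1046 genes of the chip met the limits of the set. The share of all genes over 1 or over 1.4 in each setting is not given, so these counts do not show how far the members stood apart.

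**Figure D5:**
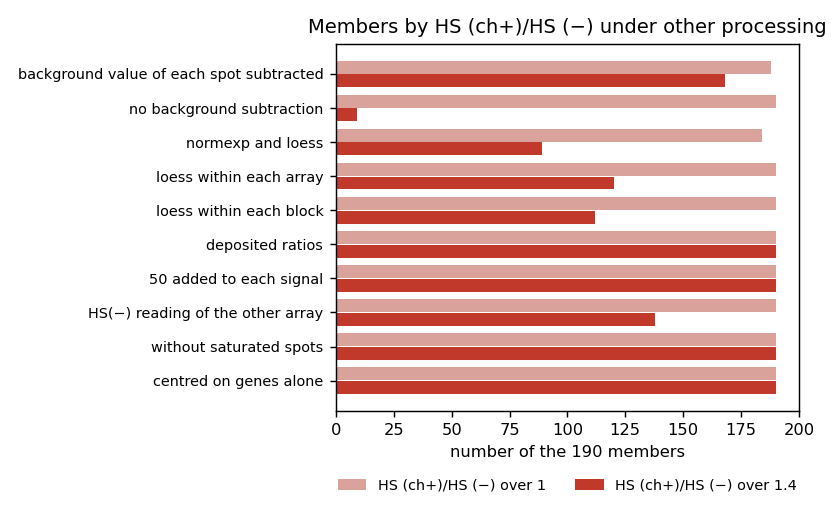
Number of the 190 members with an HS (ch+)/HS (−) ratio over 1 (light bars) and over 1.4 (dark bars) under each of 10 other ways of processing. The light bars stay between 184 and 190, and the dark bars range from 9 without background subtraction to 190. The members were chosen for a ratio over 1.4 in the same signals, which largely sets the light bars.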

How the data were processed

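Gene expression was measured in LV tissue with 2 dual-color arrays, mapped to pools and dyes by the sample labels. The authors deposited the median intensity of each spot and its background in Cy5 and Cy3, without normalization, and a table of normalized log2 ratios. The mean of the 4553 blank spots, trimmed by 5% at each end, was subtracted, spots within 2 SD of it in either channel or failing a scanner flag (1 spot) were left out, and log2 ratios were centered on the median over genes and 521 quality control spots. The largest difference from a deposited ratio was 2.7e-05. The design named the same steps.

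The genes printed by ID are the 2 members with the highest and the 2 with the lowest HS (−)/NS (−) ratio, with the genes next to each limit. The rule of the design named more genes by rank, but genes without a symbol were limited to 2 IDs in each direction. The pathway and cell type lists of the design could not be read, since 50 of the 20174 IDs had a name. The members and lists were chosen with earlier results of these data known. The alternatives were other background corrections (normexp with an offset of 50), loess, the deposited ratios, 50 added to each signal, the exchanged HS (−) readings, other limits, and Aquantile. Steps were tested on simulated arrays. Python 3.11.15, numpy 2.4.6, pandas 2.3.3, matplotlib 3.10.9, R 4.3.3 and limma 3.58.1 were used.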

Additional observations from a re-analysis of the deposited data

How the results depend on the processing

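No paired analysis was possible because each comparison had 1 array. A median was taken as moved where its shift exceeded the SD between both HS (−) readings, and a count where it changed by more than 1.5 times. Unless stated, the cause was not tested. The number of genes meeting the limits, 190, was 1046 after subtraction of each spot's own background (128 shared), 21 without background subtraction (9 shared), 370 with normexp and loess (77 shared), 532 with 50 added to each signal (180 shared) and 323 with exchanged HS (−) readings (130 shared). It was 129 with either form of loess. By construction it was 790 without a signal minimum, 119 with a minimum of 200, 82 and 1 with limits of 1.5 and 2 for HS (ch+)/HS (−), and 63 and 13 with limits of 0.71 and 1 for HS (−)/NS (−). Over the members, the HS (ch+)/HS (−) median of 1.48 became 1.78 after subtraction of each spot's own background, 1.18 without subtraction and 1.65 with 50 added. In these settings, the log2 HS (ch+)/HS (−) median over the 4127 genes shifted by 0.24, -0.27 and 0.19. The median HS (−)/NS (−) ratio, 0.640, was 0.853 without subtraction, where the median of all genes moved by 0.32 on the log2 scale, and 0.740 with normexp and loess. This ratio was 0.5 or more in 149 members after subtraction of each spot's own background and in 176 with normexp and loess. It was so in 180 with 50 added, in 173 with exchanged HS (−) readings, and in all 190 under the other ways of processing. With exchanged HS (−) readings these were 91.1% of the members, against 98.3% of all genes. For the other settings the share of all genes is not given. The median HS (ch+)/NS (−) ratio did not move in this sense in any setting. Of the members with a signal of at least 200 on both arrays, 119 in number, 49 stood above NS (−), instead of 92 of 190. With fewer members counted, this count falls by construction as well. The median HS (ch+)/NS (−) ratio of these 119 was 0.934, which did not count as moved. The reading of these 119 members and centering on genes alone were chosen after seeing the data.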
